A study of Homo sapiens with 40 samples.

Results

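SLIT2, ROBO1 and ROBO2 encode a secreted guidance cue and its receptors, and their alternative exons were followed in human cells that transcribe with altered RNA polymerase II. The exons were found by taking all rows of the 5 deposited exon tables whose name is the Ensembl identifier of SLIT2 (ENSG00000145147), ROBO1 (ENSG00000169855) or ROBO2 (ENSG00000185008). This gave 17 of 35638 rows, which describe 6 of 16378 distinct exon events: 4 in SLIT2, 1 in ROBO1 and 1 in ROBO2. The genes were chosen by measured values: the log2 changes of a 24-nt exon of SLIT2, known beforehand to be negative in the 5 comparisons. The changes of that exon are therefore given as a description without a test.

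Slit proteins are large secreted ligands built of leucine-rich repeats, EGF-like repeats and a laminin G domain. Robo proteins are their single-pass receptors, with immunoglobulin and fibronectin domains outside the cell and a cytoplasmic tail that recruits regulators of the actin cytoskeleton. The pair is best known for repelling axons from the midline of the nervous system. In the mouse kidney, Slit2 and Robo2 restrict where the ureteric bud grows out.

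The cells were HEK293 Flp-in T-REx, a human embryonic kidney line with an inducible transgene at an integration site. They expressed an α-amanitin-resistant Rpb1, the large subunit of RNA polymerase II, carrying the substitution R749H, H1106Y or E1126G, or the wild-type (WT) sequence. Every group, WT included, was induced with doxycycline and then kept in α-amanitin for 42 h, which blocks the endogenous polymerase. R749H and H1106Y are known as slow forms of the enzyme and E1126G as a fast form, and the study asked how splicing responds to the rate of elongation. RNA-seq covered R749H, E1126G and WT with 2 libraries each, called biological replicates in the labels. RASL-seq, in which probe pairs are ligated on preselected exon junctions and counted, covered R749H, H1106Y, E1126G and WT with 3 libraries each. Whether each genotype is 1 clone is not stated in the labels.

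The tables hold the authors' comparisons of each mutant with WT, with no value per library and no read counts, so the depth behind each level is unknown. Inclusion is the share of reads that support the exon, as a percentage, computed from the deposited ratio of inclusion to exclusion reads. A log2 change is that of the ratio, mutant over WT. The ± after a log2 change is an approximate standard error, the one that a two-sided normal test with the deposited p-value would have. Each table's deposited p-values were adjusted together (Benjamini-Hochberg), and an exon passed the threshold at an adjusted p below 0.05. The tables give no expression level, so neither the cell type nor the Rpb1 transgene could be checked in them.

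Of the 6 exons, 5 have at most 33 nt and the ROBO2 exon is longer. SLIT2, on the plus strand of chromosome 4, has exons of 12 nt (chr4:20492426-20492437), 24 nt (chr4:20526772-20526795), 33 nt (chr4:20555931-20555963) and 27 nt (chr4:20574857-20574883), in the order of transcription. ROBO1, on the minus strand of chromosome 3, has a 27-nt exon (chr3:78696779-78696805). The ROBO2 exon, on the plus strand of the same chromosome, has 273 nt (chr3:77691822-77692094). Coordinates are 1-based in GRCh37. Thus 4 of the 6 are microexons of at most 27 nt, a class that made up 2.10% of all rows in the R749H RNA-seq table, where the median exon had 108.5 nt. All 6 lengths are multiples of 3, the length of a codon; whether the exons are coding was not looked up. Such a length was found in 43.5% of all exons and 71.2% of microexons of that table.

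The exons sit at different places between their neighbours. The SLIT2 24-nt exon lies 971 nt downstream of the preceding exon and 3776 nt upstream of the next. The 33-nt exon has 339 nt before it and 12921 nt after it, and the SLIT2 27-nt exon has 4229 nt and 16383 nt. The 12-nt exon has the smallest span of the 6, with gaps of 1820 nt and 946 nt. In ROBO1 the gaps are 4076 nt upstream and 1438 nt downstream, and in ROBO2 7627 nt and 1760 nt. For comparison, the median upstream gap in the R749H RNA-seq table was 1947.5 nt and the median downstream gap 1890 nt.

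**Figure D1:**
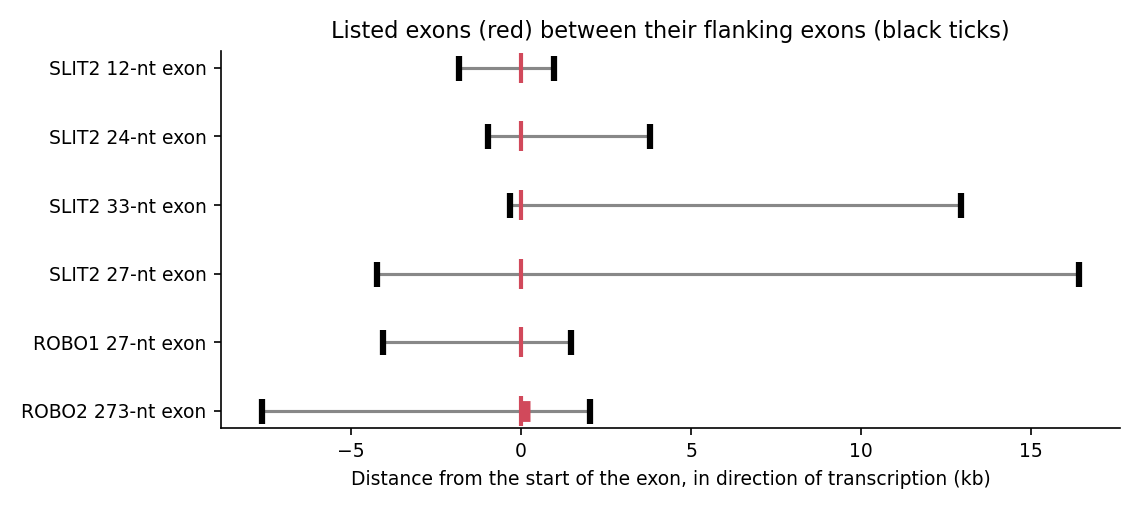
Position of each listed exon (red) between the flanking exons of its event (black ticks), as distance in kb along the direction of transcription. Red ticks mark the start of the exon and are wider than a 12-nt to 33-nt exon would be at this scale, and the SLIT2 27-nt exon has the longest downstream gap, 16383 nt.

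The SLIT2 24-nt exon was mostly included in WT cells and mostly skipped in each mutant. By RNA-seq its inclusion was 34.7% in R749H and 33.9% in E1126G cells, against 91.3% in WT cells, in the authors' deposited tables. By RASL-seq it was 26.0% in R749H, 9.51% in H1106Y and 15.7% in E1126G cells, against 73.0% in WT cells, in the authors' deposited tables. All 5 mutant levels thus lay below both WT levels.

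The log2 changes of this exon in the authors' deposited RNA-seq tables were -4.29 ± 0.46 in R749H and -4.35 ± 0.54 in E1126G. They amount to a 19.6-fold and a 20.4-fold lower inclusion ratio. The difference between these mutants, R749H minus E1126G, was 0.06, less than either standard error. On RASL-seq the log2 changes in the authors' deposited tables were -2.94 ± 0.20 in R749H, -4.68 ± 0.22 in H1106Y and -3.86 ± 0.13 in E1126G.

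The order of the RASL-seq levels, from the lowest, was H1106Y, E1126G, R749H and WT. H1106Y minus E1126G, neighbours in that order, was -0.83 ± 0.26 on the log2 scale, where ± is the combined approximate standard error. R749H minus E1126G was 0.92 ± 0.24, and R749H minus H1106Y, both slow forms, was 1.74 ± 0.30. The fast form therefore stood between the slow ones on this assay. These errors treat the comparisons as independent, although the mutants of an assay share their WT libraries.

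**Figure D2:**
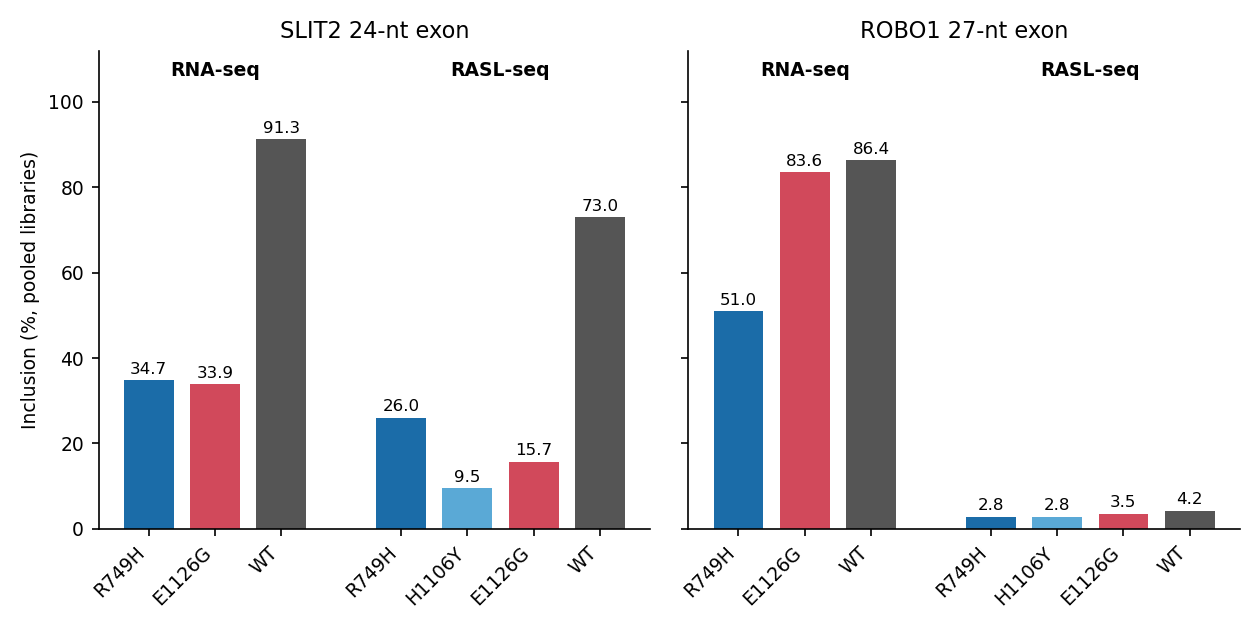
Inclusion in percent of the SLIT2 24-nt exon (left) and the ROBO1 27-nt exon (right) by genotype, for RNA-seq and RASL-seq. Bars are the authors' pooled values with no error per library. The SLIT2 exon is at 9.51% to 34.7% in mutants, against 73.0% and 91.3% in WT cells, while the ROBO1 exon differs more between assays than between genotypes.

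The drop was among the larger ones of each table. Ranked by percentage points among the events whose inclusion fell past the threshold, the SLIT2 24-nt exon was number 30 of 1154 in R749H and number 10 of 626 in E1126G by RNA-seq. On RASL-seq it was number 2 of 451 in R749H, number 4 of 791 in H1106Y and number 3 of 777 in E1126G. The exon was chosen by these same changes, so its ranks are a description. The tables as wholes were also shifted: over all events the median log2 change was -0.33 in H1106Y and -0.37 in E1126G RASL-seq, and at most 0.08 in size in the others. Relative to these medians the exon had log2 changes of -4.29 and -4.26 in R749H and E1126G RNA-seq. They were -2.99, -4.36 and -3.48 in R749H, H1106Y and E1126G RASL-seq.

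**Figure D3:**
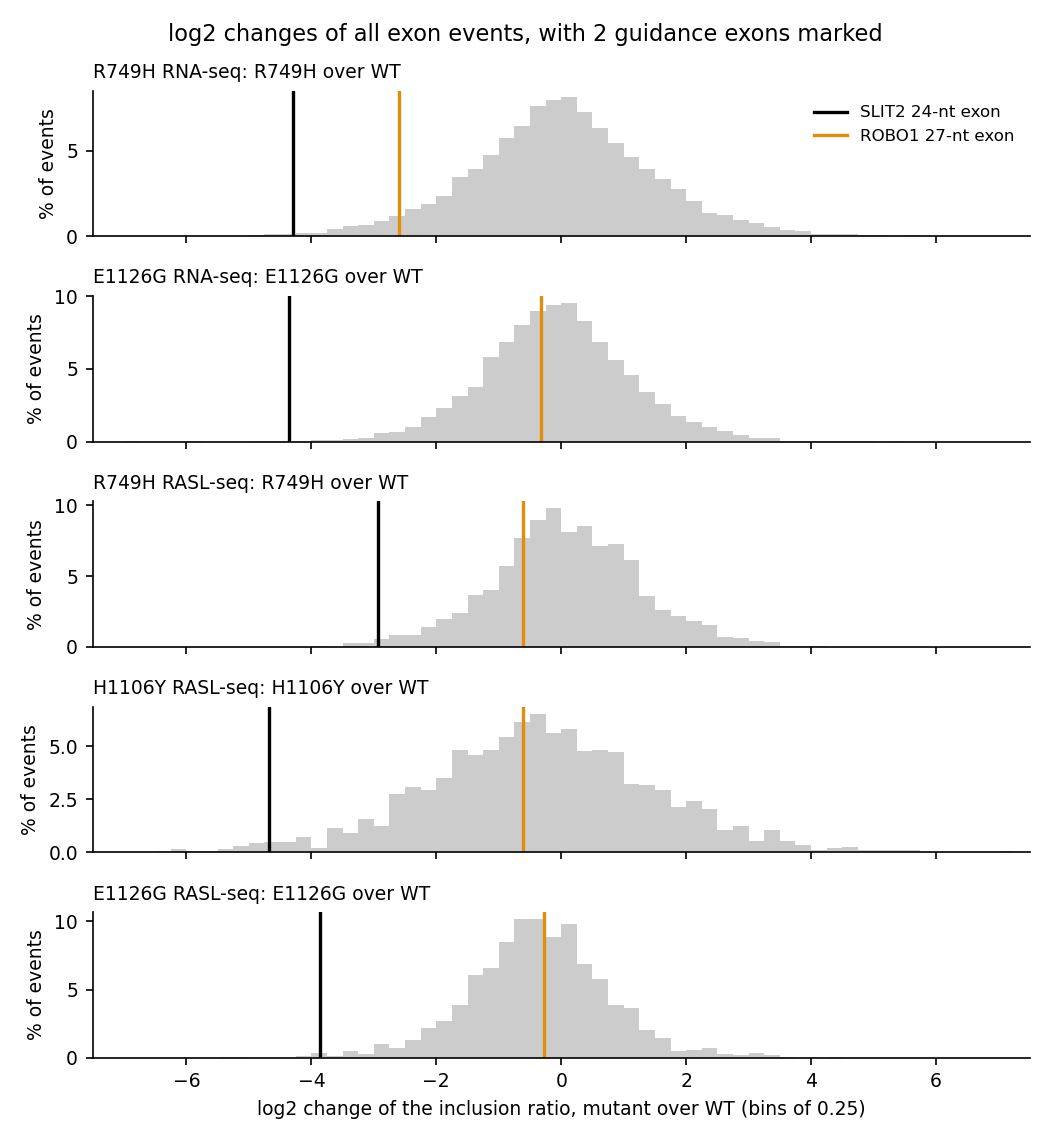
Share of all exon events, in percent, by log2 change of the inclusion ratio, mutant over WT, in each of the 5 tables, with the SLIT2 24-nt exon (black line) and the ROBO1 27-nt exon (orange line). The SLIT2 exon lies in the lower tail of every distribution, between -4.68 and -2.94.

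The other SLIT2 exons had rows in the RNA-seq tables alone, and none of them passed the threshold. The 12-nt exon had 71.6% inclusion in R749H cells, against 69.2% in WT cells, in the authors' deposited table. In E1126G cells it had 89.7%, against the same 69.2% in WT cells, a log2 change of 1.95 ± 0.71 in the authors' deposited table (adjusted p = 0.0754, from the deposited p-value). Its log2 change in R749H was 0.17 ± 0.56 (adjusted p = 0.902). This is the SLIT2 exon with the largest gain, but R749H minus E1126G was -1.78 (interval -3.54 to -0.02), which did not pass over the 13247 events so compared (approximate normal test, adjusted p = 0.446).

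The 33-nt and 27-nt exons of SLIT2 were mostly skipped in every genotype. The 33-nt exon had 5.44% inclusion in R749H and 11.5% in E1126G cells, against 9.93% in WT cells, in the authors' deposited tables. Its log2 changes were -0.94 ± 0.62 in R749H (adjusted p = 0.361) and 0.23 ± 0.69 in E1126G (adjusted p = 0.921). The SLIT2 27-nt exon had 4.39% inclusion in R749H and 4.17% in E1126G cells, against 2.12% in WT cells, in the authors' deposited tables. Its log2 changes were 1.08 ± 0.94 (adjusted p = 0.528) and 1.01 ± 1.11 (adjusted p = 0.730). The interval in R749H, -0.75 to 2.92, spans both a modest loss and a several-fold gain, so a change of this rarely included exon could not be resolved.

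The receptor ROBO1 included its 27-nt exon less in R749H than in WT cells on RNA-seq. Inclusion was 51.0% in R749H and 83.6% in E1126G cells, against 86.4% in WT cells, in the authors' deposited tables. The R749H level stood apart from the other two. The log2 change was -2.60 ± 0.50 in R749H, a 6.08-fold lower ratio that passed the threshold (adjusted p = 5.47e-06, from the authors' deposited p-value). In E1126G it was -0.32 ± 0.62 and did not pass (adjusted p = 0.872), with an interval of -1.53 to 0.90. The difference between the mutants, R749H minus E1126G, was -2.29 (interval -3.84 to -0.73). It had an unadjusted p of 0.00396 and did not pass once adjusted over the 13247 events compared (approximate normal test, adjusted p = 0.127). The R749H level was thus lower than that of WT by the test, while a difference between R749H and E1126G was not shown.

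On RASL-seq the same ROBO1 exon stood at a very different level. Its inclusion was 2.80% in R749H, 2.80% in H1106Y and 3.50% in E1126G cells, against 4.23% in WT cells, in the authors' deposited tables. The WT level was thus 4.23% on RASL-seq and 86.4% on RNA-seq. Probe pairs can differ in efficiency, and the part of this in the gap between assays was not tested. The SLIT2 24-nt exon showed a smaller gap, 73.0% on RASL-seq and 91.3% on RNA-seq in WT cells.

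The RASL-seq log2 changes of the ROBO1 exon were small. They were -0.61 ± 0.24 in R749H (adjusted p = 0.0300), -0.62 ± 0.29 in H1106Y (adjusted p = 0.0577) and -0.28 ± 0.20 in E1126G (adjusted p = 0.258), from the authors' deposited tables. R749H passed the threshold, but at 383 of 451 by percentage points its fall of 1.43 points was among the smaller ones. The call was lost with the Benjamini-Yekutieli adjustment (adjusted p = 0.249), at a threshold of 0.01 and within events of 5% to 95% WT inclusion, a set that leaves this exon out. None of the 3 pairs of mutants passed a test of their difference on this assay (approximate normal test, adjusted p = 0.458 to 0.998). R749H minus H1106Y was 0.00, with an interval of -0.75 to 0.75. Relative to the median of all events, the E1126G value turned from -0.28 to 0.09, whereas R749H stayed lower at -0.66 and H1106Y at -0.29.

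The ROBO2 exon had a row in the R749H RNA-seq table alone. Its inclusion was 22.2% in R749H cells, against 66.7% in WT cells, in the authors' deposited table. The log2 change of -2.81 was larger in size than that of the ROBO1 exon, but its standard error of 1.30 was also larger. It did not pass the threshold (unadjusted p = 0.0302, adjusted p = 0.135).

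**Figure D4:**
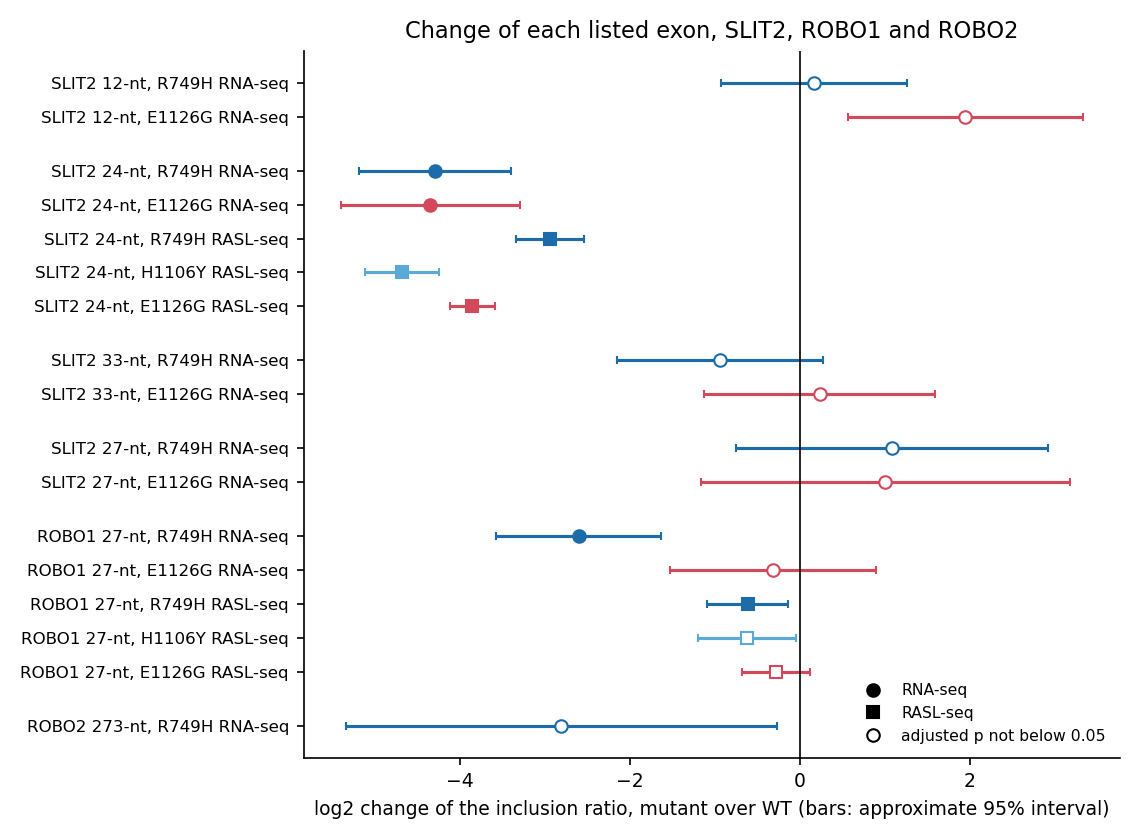
Log2 change of the inclusion ratio, mutant over WT, for the 17 rows of the 3 genes, with approximate 95% intervals from the deposited p-values. Circles are RNA-seq, squares RASL-seq, and open symbols did not pass an adjusted p of 0.05. The SLIT2 24-nt exon lies between -4.68 and -2.94 in all 5 comparisons, and the other SLIT2 exons have intervals several units wide.

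Counted over the 3 genes, the exons that passed were lower in the mutant in each table. In R749H RNA-seq 2 of 6 passed, where 15.1% of all events did and 8.04% were lower. In E1126G RNA-seq 1 of 5 passed, where 6.48% of all events did and 4.27% were lower. In R749H RASL-seq 2 of 2 passed (44.1% of all events, 20.1% lower), in H1106Y 1 of 2 (61.9%, 38.2% lower) and in E1126G 1 of 2 (47.5%, 33.6% lower). With so few members, of which the SLIT2 24-nt exon was chosen for its fall, these counts say nothing beyond the single exons. At an unadjusted p below 0.05 the SLIT2 12-nt exon in E1126G was the 1 row with higher inclusion. Of the 2605 and 2615 introns in the R749H and E1126G retained intron tables, none overlapped the span of a SLIT2, ROBO1 or ROBO2 event.

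Microexons of at most 27 nt as a class, to which 4 of the 6 exons belong, were called in 18.5% of 302 rows in R749H RNA-seq and 13.9% of 316 in E1126G RNA-seq, beside 15.1% and 6.48% of all events. Of the microexons called, 45 of 56 and 38 of 44 were lower in the mutant. Over all events called, 1154 of 2169 and 626 of 949 were lower. On RASL-seq 57.1%, 63.5% and 70.9% of microexons were called in R749H, H1106Y and E1126G, beside 44.1%, 61.9% and 47.5% of all events. Of those called, 24 of 32, 23 of 33 and 33 of 39 were lower. Over all events called on RASL-seq, 451 of 991, 791 of 1282 and 777 of 1098 were lower. The median log2 change of microexons was -0.23 and -0.35 in R749H and E1126G RNA-seq, beside -0.00479 and -0.08 over all events. It was -0.57, -0.69 and -0.88 in R749H, H1106Y and E1126G RASL-seq, beside 0.05, -0.33 and -0.37 over all events. The SLIT2 24-nt exon lay far below the microexon medians. On RASL-seq the ROBO1 exon lay within 0.1 of the microexon medians in R749H and H1106Y and above that in E1126G. The class includes these exons, and no test was made of it.

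Exons with the pattern most like that of the SLIT2 24-nt exon were sought among the 1429 events of other genes listed in all 5 tables, by the Euclidean distance between the 5 log2 changes. The nearest was a 27-nt exon of MARK3, a polarity kinase, at a distance of 1.58, where the median event was at 8.77. It had log2 changes of -3.65 and -3.22 in R749H and E1126G RNA-seq and of -2.04, -4.71 and -3.88 in R749H, H1106Y and E1126G RASL-seq, in the authors' deposited tables. A 52-nt exon of YLPM1 followed at 1.80, a 111-nt exon of MACF1, a cytoskeletal linker, at 2.77, and exons of 39 nt and 91 nt of UPF3B, a decay factor, at 2.79 and 3.06. The UPF3B exons have identical RASL-seq values. For the ROBO1 exon the nearest were exons of PICALM (0.36), TXNDC11 (0.44), PBRM1 (0.67), MFF (0.85) and SLC35A3 (0.89), of 99 to 178 nt, with a median distance of 3.43. The 5 comparisons share WT libraries within an assay, so likeness over them is a description.

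Other genes of guidance signalling were taken from 3 lists with 128 genes in all. The first covers Slit-Robo signalling beyond the 3 genes: its other ligands and receptors, coreceptors, and effectors on actin and microtubules. Its events passed in 6 of 46 cases in R749H RNA-seq, 2 higher and 4 lower, and in 2 of 46 in E1126G RNA-seq, both lower. On RASL-seq 4 of 8 passed in R749H (2 higher, 2 lower), 4 of 9 in H1106Y (1 higher, 3 lower) and 6 of 11 in E1126G (2 higher, 4 lower). These shares were 13.0%, 4.35%, 50.0%, 44.4% and 54.5%, beside 15.1%, 6.48%, 44.1%, 61.9% and 47.5% of all events in the same order. The median log2 change of the list was 0.02 and -0.30 in R749H and E1126G RNA-seq, beside -0.00479 and -0.08 over all events. On RASL-seq it was 0.42, -0.58 and -0.36 in R749H, H1106Y and E1126G, beside 0.05, -0.33 and -0.37.

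RAC1, a small GTPase that drives lamellipodia, skipped the 57-nt exon of its RAC1b form (chr7:6438293-6438349) in every mutant. By RNA-seq its inclusion was 5.95% in R749H and 2.06% in E1126G cells, against 34.1% in WT cells, in the authors' deposited tables. By RASL-seq it was 3.27% in R749H, 2.93% in H1106Y and 0.553% in E1126G cells, against 7.81% in WT cells, in the authors' deposited tables. The log2 changes passed in all 5 comparisons and ran from -4.62 ± 0.40 in E1126G RNA-seq to -1.32 ± 0.18 in R749H RASL-seq (adjusted p at most 4.75e-12). On both assays the lowest level was that of E1126G.

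ENAH, an Ena/VASP protein that extends actin filaments and acts downstream of Robo, lost a 63-nt exon (chr1:225692693-225692755). Its inclusion by RNA-seq was 10.8% in R749H and 7.47% in E1126G cells, against 55.3% in WT cells, in the authors' deposited tables. By RASL-seq it was 7.71% in R749H, 3.75% in H1106Y and 2.40% in E1126G cells, against 16.7% in WT cells, in the authors' deposited tables. The log2 changes ran from -3.94 ± 0.35 in E1126G RNA-seq to -1.26 ± 0.24 in R749H RASL-seq and passed in all 5 comparisons (adjusted p at most 9.14e-07). These lengths, 57 and 63 nt, are multiples of 3 as in the SLIT2 and ROBO exons. A 111-nt ENAH exon, given here after its values were seen, passed in the opposite direction in R749H RNA-seq. It was at 98.9%, against 96.0% in WT cells, in the authors' deposited table (adjusted p = 0.0389). In E1126G RNA-seq it was at 98.5% and did not pass (adjusted p = 0.224).

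A 722-nt exon of NCK2, an adaptor that links receptors to actin regulators, went the other way and passed in 4 of 5 comparisons. Its inclusion by RNA-seq was 96.6% in R749H and 96.8% in E1126G cells, against 87.3% in WT cells, in the authors' deposited tables. The log2 change was 2.06 ± 0.76 in R749H (adjusted p = 0.0462) and 2.13 ± 0.83 in E1126G, which did not pass (adjusted p = 0.112). On RASL-seq the log2 changes were 3.00, 2.99 and 1.66 in R749H, H1106Y and E1126G, on inclusion of 99.3% to 99.7% in mutants, against 97.8% in WT cells, in the authors' deposited tables. A 49-nt exon of PAK1, a kinase activated by RAC1, passed in 2 of 4 tables. By RNA-seq it was at 2.92% in R749H cells, against 13.4% in WT cells, in the authors' deposited table. By RASL-seq it was at 9.59% in E1126G cells, against 33.3% in WT cells, in the authors' deposited table. In E1126G RNA-seq the PAK1 exon was at 8.17% and in H1106Y RASL-seq at 31.6%, and neither passed (adjusted p = 0.474 and 0.918).

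**Figure D5:**
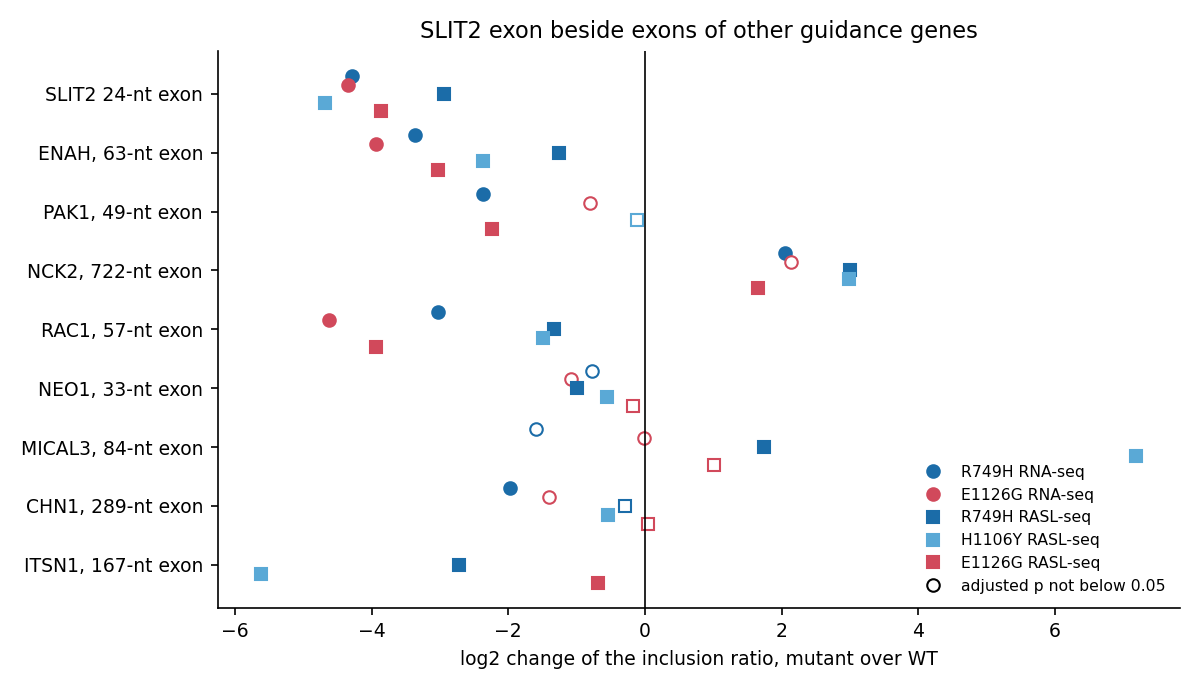
Log2 change of the inclusion ratio, mutant over WT, of the SLIT2 24-nt exon and of 1 exon each of the named guidance genes, the one that passed most often in 1 direction, where this was in at least 2 comparisons. Other exons of these genes are not drawn. Circles are RNA-seq, squares RASL-seq, and open symbols did not pass an adjusted p of 0.05. The RAC1 and ENAH exons lie below 0 in all 5 comparisons, like the SLIT2 exon, and the NCK2 exon lies above 0.

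Of the events of netrin and semaphorin genes, 2 of 47 passed in R749H RNA-seq, 1 in each direction, and 0 of 44 in E1126G RNA-seq, where 3 had an unadjusted p below 0.05 and 0 passed by the Benjamini-Yekutieli method. On RASL-seq 2 of 5 passed in R749H, 2 of 5 in H1106Y and 0 of 5 in E1126G, where 0 had an unadjusted p below 0.05 and 0 passed by the Benjamini-Yekutieli method. The shares called were 4.26% and 0% in R749H and E1126G RNA-seq, where 15.1% and 6.48% of all events were called. On RASL-seq they were 40.0%, 40.0% and 0% in R749H, H1106Y and E1126G, beside 44.1%, 61.9% and 47.5% of all events. The median log2 change of this list was -0.17 and -0.22 in R749H and E1126G RNA-seq, beside -0.00479 and -0.08 over all events. On RASL-seq it was 0.31, 0.06 and -0.14 in R749H, H1106Y and E1126G, beside 0.05, -0.33 and -0.37 over all events. A 33-nt exon of NEO1, neogenin, a receptor for netrins and repulsive guidance molecules, fell to 46.6% in R749H and 54.3% in H1106Y cells, against 63.5% in WT cells, in the authors' deposited RASL-seq tables (adjusted p = 1.64e-05 and 0.0446). In E1126G it was at 60.7% and did not pass (adjusted p = 0.328). By RNA-seq the NEO1 exon was at 18.7% in R749H and 15.7% in E1126G cells, against 28.2% in WT cells, in the authors' deposited tables. Neither change passed on that assay (adjusted p = 0.329 and 0.255). An 84-nt exon of MICAL3, a flavoprotein of a family that oxidises actin, was at 27.1% in H1106Y cells, against 0.254% in WT cells, in the authors' deposited RASL-seq table. In R749H it was at 0.848%, against the same 0.254% in WT cells, and passed as well (adjusted p = 0.0306). By RNA-seq it was at 4.08% in R749H, against 11.4% in WT cells, in the authors' deposited table, and did not pass (adjusted p = 0.505). In E1126G the MICAL3 exon passed on neither assay (adjusted p = 0.999 by RNA-seq and 0.269 by RASL-seq). The kinases FYN and PTK2 each had an exon that passed in R749H RNA-seq, FYN at 82.0% against 97.2% in WT cells and PTK2 at 92.7% against 79.7% in WT cells, in the authors' deposited table. Their adjusted p was 0.0284 and 0.0474, and neither passed with the Benjamini-Yekutieli adjustment. In E1126G RNA-seq neither exon passed, with FYN at 99.1% and PTK2 at 77.8% (adjusted p = 0.689 and 0.925).

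Exon events of ephrin genes passed in 5 of 11 cases in R749H RNA-seq, 2 higher and 3 lower, and in 1 of 14 in E1126G RNA-seq, which was higher. Those 5 events belong to CHN1, ITSN1 and EFNA5, and 3 of the 11 passed with the Benjamini-Yekutieli adjustment. On RASL-seq 3 of 6 passed in R749H, 5 of 7 in H1106Y and 3 of 7 in E1126G, of which 1, 4 and 2 were lower. The shares called were 45.5% and 7.14% in R749H and E1126G RNA-seq, where 15.1% and 6.48% of all events were called. On RASL-seq they were 50.0%, 71.4% and 42.9% in R749H, H1106Y and E1126G, beside 44.1%, 61.9% and 47.5% of all events, on 6 or 7 events each. The median log2 change of this list was -0.23 and -0.41 in R749H and E1126G RNA-seq, beside -0.00479 and -0.08 over all events. On RASL-seq it was 0.56, -0.54 and -0.28 in R749H, H1106Y and E1126G, beside 0.05, -0.33 and -0.37 over all events. An 81-nt exon of the ligand EFNA5 was at 49.1% in R749H cells, against 86.0% in WT cells, by RNA-seq in the authors' deposited table (adjusted p = 4.37e-04). In E1126G RNA-seq the EFNA5 exon was at 77.8% and did not pass (adjusted p = 0.633). A 167-nt exon of ITSN1, an exchange factor for CDC42, fell to 62.4% in R749H, 18.3% in H1106Y and 87.2% in E1126G cells, against 91.6% in WT cells, in the authors' deposited RASL-seq tables (adjusted p at most 0.00645). Other ITSN1 exons passed in the opposite direction and are given here after their values were seen. An 83-nt exon rose to 63.8% in R749H and 63.3% in E1126G cells, against 13.5% in WT cells, in the authors' deposited RNA-seq tables (adjusted p = 2.36e-04 and 0.00388). A 46-nt exon rose to 94.3% in R749H and 98.2% in H1106Y cells, against 67.8% in WT cells, in the authors' deposited RASL-seq tables (adjusted p at most 3.93e-14). In E1126G this exon was at 59.4% and did not pass (adjusted p = 0.152). By RNA-seq a 46-nt ITSN1 exon did not rise. It was at 66.2% in R749H and 55.2% in E1126G cells, against 69.6% in WT cells, in the authors' deposited tables. Neither passed (adjusted p = 0.894 and 0.675). A 289-nt exon of CHN1, a Rac regulator downstream of EPHA4, passed in R749H RNA-seq at 77.4% against 93.1% in WT cells, and in H1106Y RASL-seq at 81.9% against 86.8% in WT cells, in the authors' deposited tables. By RASL-seq a 78-nt CHN1 exon was at 96.5% in R749H, 86.5% in H1106Y and 87.0% in E1126G cells, against 91.5% in WT cells. It passed in each (adjusted p at most 0.00236). CHN1 exons of 51 nt (lower in R749H RNA-seq) and 187 nt (higher in E1126G RASL-seq) also passed (adjusted p = 0.0346 and 0.0270). A 93-nt exon of the ligand EFNB2 passed in H1106Y RASL-seq at 99.2% against 99.8% in WT cells, in the authors' deposited table. In R749H and E1126G RASL-seq the EFNB2 exon did not pass (adjusted p = 0.955 and 0.743).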

How the data were processed

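RNA-seq reads were mapped per library with TopHat 1.4.1, per the labels' protocols, and the submitters' processing notes also name Bowtie 0.12.7, edgeR 3.7.17 and GRCh37 without saying which table each made. For each event the authors deposited a natural log value (the inclusion to exclusion ratio in WT), a log2 value (mutant ratio over WT ratio) and an unadjusted p-value, whose test is not stated in the labels or file headers. The tables with a code for the mutant are those that the R749H labels list. These log bases were inferred: with the natural log, 62.9% to 94.4% of WT ratios reduced to whole-number fractions (relative tolerance 1e-09, denominators no larger than 300), and with base 2 at most 0.396% did. The direction of the log2 value was inferred in the same way. Read as mutant over WT, it gave mutant ratios of which 63.5% to 95.2% so reduced. With the opposite sign 5.36% to 22.5% did.

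Inclusion, 100 times the ratio over 1 plus the ratio, was computed with Python 3.11.15, numpy 2.4.6, pandas 2.3.3 and scipy 1.17.1, without correction for junction number. Deposited p-values were adjusted over whole tables, and the procedure was run on simulated data. The simulation drew normal values with the same approximate standard errors and independent mutants. It therefore checks the calculation alone, not those errors or the tests between mutants. No value per library exists, so no SD or leave-one-out value is given, and whether the deposited p-values carry the spread between libraries is unknown. The approximate standard errors, intervals and tests between mutants assume a normal test behind the deposited p-value, and they were chosen after seeing the data. Genes and lists were chosen with earlier results of these data known. All rows of the 3 genes are given. From each guidance list, up to 4 genes are named whose events passed in the same direction in the most comparisons, with 1 event per gene and ties broken by the mean absolute change in inclusion. Further exons of ITSN1, CHN1 and ENAH were added after their values were seen. Symbols matched 6848 of 6976 Ensembl identifiers. No sequence of these exons was used here, and the GRO-seq libraries were not analysed here.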

Additional observations from a re-analysis of the deposited data

How the results depend on the processing

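No paired analysis was possible because the tables hold no value per library, and for the same reason no replicate could be left out. Alternatives were thresholds of 0.01 and 0.1, the Benjamini-Yekutieli adjustment, and events of 5% to 95% WT inclusion alone. Counts of SLIT2, ROBO1 and ROBO2 exons moved with 3 rows. The SLIT2 12-nt exon joined in E1126G RNA-seq at 0.1, which made 2. The ROBO1 exon joined in H1106Y RASL-seq at 0.1, which made 2, and dropped out in R749H RASL-seq at 0.01, with Benjamini-Yekutieli (adjusted p = 0.249) and within 5% to 95% WT inclusion, which left 1 each time. That last set leaves out the exon by its WT level. The ROBO1 exon in R749H RNA-seq passed under each of these settings. Guidance list counts in R749H RNA-seq went from 13 to 5 at 0.01 and to 5 with Benjamini-Yekutieli. They went from 3 to 5 at 0.1 in E1126G RNA-seq, and from 11 to 7 within 5% to 95% WT inclusion in H1106Y RASL-seq. Other guidance counts shifted too, among them from 13 to 17 at 0.1 in R749H RNA-seq. In E1126G RASL-seq the count went from 9 to 6 with Benjamini-Yekutieli. Taken relative to the median of its table, 1 of 17 log2 changes turned, the ROBO1 exon in E1126G RASL-seq, to 0.0898. The causes were not tested. Because depth is unknown, levels near 0% or 100% carry no interval.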
